A study of Homo sapiens with 12 samples.

Results

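The first 7 days in osteogenic medium of the CD99-transfected Saos-2 cells were followed on 4 miRNA arrays out of the 12 of the series. Saos-2 is a human osteosarcoma cell line. Sa/CD99 wt22 and Sa/CD99 wt36 are clones of it that stably carry a CD99 construct brought in by calcium phosphate and selected with neomycin, so each clone is 1 cell line and there was 1 array per clone and day. Cells were seeded, given osteogenic medium 4 days later and renewed with it every 4 days, and total RNA was labelled with Cy3 for Agilent human miRNA arrays on days 0 and 7. Members were all human miRNA names that stood above the lowest value of their column in the deposited log2 table on both clones of day 0, of day 7 or of both, which took in 174 of the 851 names. Of these, 124 were detected on both day 0 arrays and 163 on both day 7 arrays. On all 4 arrays 113 were detected, on day 7 alone 38, on day 0 alone 2, and the other 21 on both arrays of a day and 1 of the other.

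The study describes CD99, a small glycoprotein, as found on the surface of osteoblasts and mostly missing from osteosarcoma. In osteogenic medium, ascorbic acid and a phosphate donor let cells of the osteoblast lineage lay down collagen and mineral. By the study's methods this medium also held less fetal bovine serum than the routine culture medium. The study calls day 0 basal, so serum changed along with day and cannot be told apart from it. A miRNA silences mRNAs that pair with its seed, the bases near its 5′ end, so miRNAs of one seed family share many targets.

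RefSeq (GRCh38.p14) held a mature sequence for 147 of the 174 members, 84.5%. Those that the results turn on are given here 5′ to 3′, with the seed, bases 2 to 8, in capitals. The first set holds families of which members were lower on day 7 in the deposited table, grouped by seed. In order these are let-7, then miR-92, then miR-99 and miR-100, then miR-130 and miR-301a.
let-7a: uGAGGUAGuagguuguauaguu
let-7c: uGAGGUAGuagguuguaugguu
miR-98: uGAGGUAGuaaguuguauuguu
miR-92a: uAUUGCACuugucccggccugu
miR-92b: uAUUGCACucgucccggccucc
miR-100: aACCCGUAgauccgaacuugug
miR-99b: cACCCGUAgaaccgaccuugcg
miR-301a: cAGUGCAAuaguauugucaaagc
miR-130b: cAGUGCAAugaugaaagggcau

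The second set holds miRNAs with seeds of their own that were lower on day 7 in the deposited table.
miR-210: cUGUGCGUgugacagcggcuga
miR-129*: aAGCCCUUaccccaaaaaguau
miR-149: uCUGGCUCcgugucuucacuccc
miR-484: uCAGGCUCaguccccucccgau
miR-29b-1*: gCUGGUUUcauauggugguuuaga
miR-183: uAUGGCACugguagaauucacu

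The third set holds those that were higher on day 7 or that the study discusses, with 2 further arms of the miR-99b and miR-125a hairpins.
miR-1225-5p: gUGGGUACggcccagugggggg
miR-1202: gUGCCAGCugcagugggggag
miR-494: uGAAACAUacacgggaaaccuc
miR-1268: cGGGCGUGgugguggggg
miR-1246: aAUGGAUUuuuggagcagg
miR-1290: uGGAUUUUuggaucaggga
miR-630: aGUAUUCUguaccagggaaggu
miR-188-5p: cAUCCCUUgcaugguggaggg
miR-663: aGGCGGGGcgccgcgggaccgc
miR-378: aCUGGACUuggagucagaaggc
miR-34a: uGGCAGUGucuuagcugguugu
miR-1305: uUUUCAACucuaaugggagaga
miR-99b*: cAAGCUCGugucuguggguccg
miR-125a-3p: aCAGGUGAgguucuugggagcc

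The seeds of miR-1246 and miR-1290 share a run of 5 bases offset by 2 positions. miR-923, miR-1308, miR-483-5p and miR-486-5p are named only.

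Scanner files and the columns of the deposited table disagree on the samples. Each of the 12 scanner files is filed under a sample other than that of the column with the same detected names, and which record is right cannot be settled from the files. Scanner signals are given here under the column with the same detected names. With the files under the samples they were filed with, limma on rma-like values called 0 miRNAs between day 0 and day 7, and the median change was -0.11. As filed, miR-923 would hold 62.2% and 3.50% of the human signal of clones 22 and 36 on day 0. On day 7 it would hold 6.55% and 60.2%. By the columns it held 3.50% and 4.89% on day 0 and 66.7% and 66.2% on day 7.

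The 2 days differed first in how much RNA signal the arrays held and in how it was spread. On day 0 the detected human names summed to a scanner signal of 9061 in clone 22 and 8523 in clone 36, and on day 7 to 40796 and 40562. A single name, miR-923, which has since been withdrawn from miRBase as a fragment of ribosomal RNA, held 3.50% and 4.89% of that sum on day 0 and 66.7% and 66.2% on day 7. Without it the sums were 8744 and 8106 on day 0 and 13576 and 13725 on day 7. More names were also detected on day 7, 177 and 173, than on day 0, 133 and 136. The 4 spike-in controls, which the scanner software reports for labelling and hybridization, had a mean log2 signal of 10.33 and 10.30 on day 0 and of 10.26 and 10.30 on day 7, so the controls moved far less between days than the miRNA sum.

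This matters for every direction given here, because the deposited values were normalized between arrays. The median change from day 0 to day 7 of the 113 miRNAs on all 4 arrays was -0.93 in the deposited table, -0.82 in clone 22 and -0.95 in clone 36. With the scanner signal scaled to the spike-in controls it was 0.33, with no scaling 0.29, and with scaling to the 75th percentile -0.33. Below 0 lay 97 of the 113 in the deposited values and 30 after spike-in scaling, above 0 lay 16 and 83, and 67 changed side. Values are therefore given by the table, with the spike-in scaled value beside most of those discussed. Where a family is described, they are also given as the distance from these medians. Day and slide cannot be told apart in Sa/CD99 cells, since both day 0 arrays lay on one slide and both day 7 arrays on the other.

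**Figure D1:**
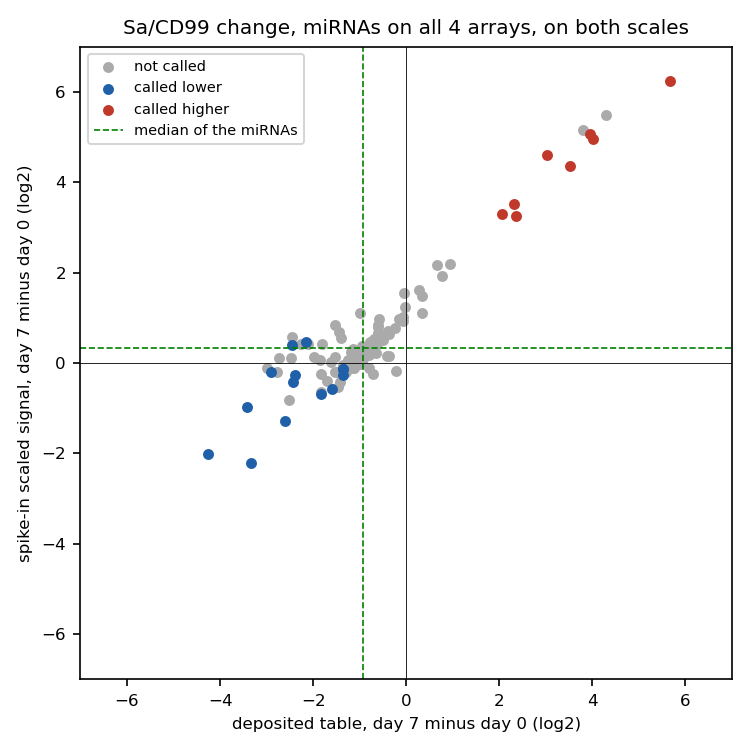
Change from day 0 to day 7 (log2) of the 113 miRNAs on all 4 Sa/CD99 arrays, by the deposited table on the x axis and by the spike-in scaled scanner signal on the y axis; each point is 1 miRNA, coloured by its call in the table, and dashed lines mark the medians of -0.93 and 0.33. The 67 miRNAs to the upper left are below 0 in the table and above 0 after spike-in scaling.

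Between day 0 and day 7, 64 of the 219 miRNAs tested passed an adjusted p of 0.05 in limma, a background of 29.2%, and all 64 were members. Of these, 44 were higher on day 7, 20.1% of those tested, and 20 were lower, 9.13%. Detection on a single day chose most of them: 33 of the higher ones were detected on day 7 alone, so that they were compared with the floor of day 0, and they are counted here only as a description. Among the 113 on all 4 arrays, 8 rose and 14 fell. The share of higher calls was 68.8% by the table, 82.7% by 75th percentile scaling, 91.3% with no scaling, 90.2% by spike-in scaling, 78.9% after centring the table on the miRNAs detected on every array, 52.9% by an rma-like summary and 40.3% by normexp. In each of these, most higher calls were of miRNAs not detected on all 4 arrays. On all 4 arrays the higher and lower calls were 8 and 7 by 75th percentile scaling, 9 and 2 with no scaling, 12 and 3 by spike-in scaling, 8 and 6 after centring, 12 and 39 by the rma-like summary and 10 and 40 by normexp. Without clone 36 of day 0, and likewise without clone 36 of day 7, 41 miRNAs were called in place of 64.

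Of the 8 rises, the largest was that of miR-923. It stood at 9.20 and 9.42 on day 0 and 14.99 and 14.99 on day 7, the top of the human values on both day 7 arrays. Its scanner signal was 317 and 417 on day 0 and 27220 and 26837 on day 7. It rose by 5.68 (SE 0.55, adjusted p = 0.000188), and by 6.25 after spike-in scaling. miR-1308 and miR-1246, names that likewise have been withdrawn or reported as fragments of other RNAs, rose beside it. The values of miR-1308 were 5.21 and 5.64 on day 0 and 8.46 and 9.42 on day 7, a change of 3.51 (adjusted p = 0.00203). For miR-1246, whose sequence has been traced to the U2 spliceosomal RNA, they were 6.97 and 7.09 on day 0 and 8.96 and 9.83 on day 7, a change of 2.36 (adjusted p = 0.0119). In all 3 the lower day 7 array stood above the higher day 0 array.

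The list of such fragments had 18 names, of which 9 were on the array and 7 were members, all of them on all 4 arrays. Of these, 3 rose and miR-1826 fell, and the 3 not called were close together: miR-720 had a change of -0.41, miR-1280 of -0.67 and miR-886-3p, a vault RNA fragment, of -0.95. After spike-in scaling all 7 were above 0, miR-1826 included at 0.48 against -2.16 in the table. The median of the list was -0.41, 0.52 above that of the 113 miRNAs.

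A mirtron, a miRNA cut from a short spliced intron, came next. miR-1225-5p, from an intron of PKD1, stood at 4.94 and 4.77 on day 0 and 8.80 and 8.96 on day 7. Both clones gained, and the change was 4.02 (SE 0.54, adjusted p = 0.00113), or 4.96 after spike-in scaling. The other arm of the same hairpin, miR-1225-3p, did not pass the test. It stood at 4.15 and 4.28 on day 0 and 2.73 and 3.40 on day 7, a change of -1.15 (adjusted p = 0.72) that became 0.30 after spike-in scaling. Of the 16 mirtrons on the array 10 were members, 5 of them on all 4 arrays and 4 on day 7 alone. miR-1225-5p was the only one of the 5 to be called. Over the 5 the median was -1.05, -0.12 from that of all, and 0.22 after spike-in scaling, where all 5 were above 0.

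The other 4 rises were of miR-1202, miR-494, miR-1268 and miR-1290. miR-1202 stood at 4.39 and 4.35 on day 0 and 8.09 and 8.55 on day 7 and rose by 3.95 (adjusted p = 0.000235). miR-494, which lies in the imprinted DLK1-DIO3 cluster, stood at 3.55 and 3.95 on day 0 and 6.80 and 6.75 on day 7 and rose by 3.02 (adjusted p = 0.0292). The clones stood closer to each other in miR-494 on day 7 than in miR-1268 or miR-1290. miR-1268 had values of 5.12 and 5.46 on day 0 and 7.14 and 8.09 on day 7 and rose by 2.33 (adjusted p = 0.0245), and miR-1290 had values of 4.60 and 4.75 on day 0 and 6.05 and 7.42 on day 7 and rose by 2.06 (adjusted p = 0.0184). All 8 rises on all 4 arrays also passed after spike-in scaling, where the changes lay between 3.25 and 6.25, and with no scaling. 2 miRNAs with changes as large did not pass: miR-1207-5p at 4.30 (SE 2.03, adjusted p = 0.153) and miR-1915 at 3.79 (SE 1.96, adjusted p = 0.177), named after their values were seen.

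**Figure D2:**
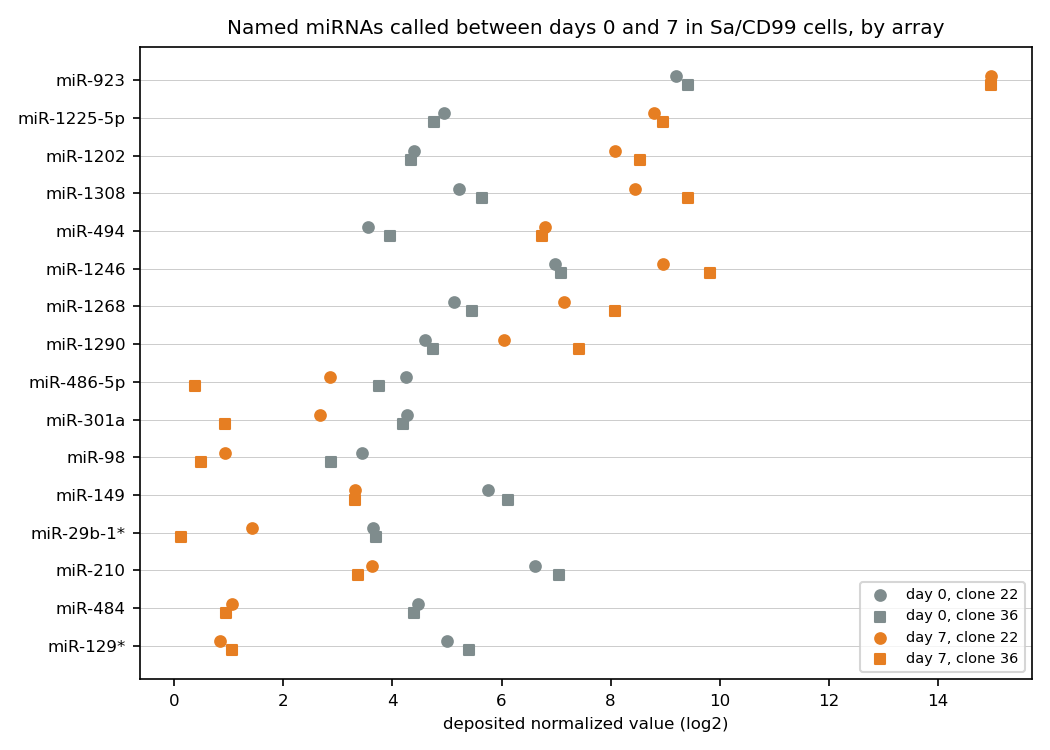
Deposited log2 values of the 8 largest rises and 8 largest falls among the miRNAs called on all 4 Sa/CD99 arrays; each point is 1 array, grey for day 0 and orange for day 7, a circle for clone 22 and a square for clone 36. In all 16 the days do not overlap, which is part of how they were chosen, and of the 8 falls miR-98 alone is above 0, at 0.39, after spike-in scaling.

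Of the 14 falls, miR-210 had the smallest adjusted p. It is the miRNA most strongly induced by low oxygen through HIF, and it is known to favour osteoblast differentiation by repressing an activin receptor. Its gene lies at chr11:568112-568133 on the minus strand (GRCh38.p14). The deposited values were 6.62 and 7.05 on day 0 and 3.62 and 3.37 on day 7. Both day 7 arrays lay below both day 0 arrays. The change was -3.34 (SE 0.41, adjusted p = 0.000743), and -2.22 after spike-in scaling (adjusted p = 0.00289). In unscaled scanner signal it stood at 58.6 and 72.8 on day 0 and 15.4 and 12.05 on day 7, so it was lower on day 7 by the table, after spike-in scaling and unscaled. On day 14 the signal was 12.96 and 16.79.

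miR-129*, the 3′ arm of a miR-129 hairpin, had values of 5.00 and 5.41 on day 0 and 0.84 and 1.05 on day 7. The fall was -4.26 (SE 0.80, adjusted p = 0.00662), or -2.01 after spike-in scaling (adjusted p = 0.0024), and by day 14 it was no longer detected in either clone. The 5′ arm, miR-129-5p, was also called lower in the table, where clone 22 stood at the floor on day 7. Its scanner signal was 8.03 and 15.5 on day 0, undetected in clone 22 on day 7 and 3.29 in clone 36 there. It was not called after spike-in scaling (adjusted p = 0.115) or with no scaling (adjusted p = 0.162). miR-149 was the third that fell on both scales. It had values of 5.75 and 6.11 on day 0 and 3.32 and 3.32 on day 7, a change of -2.61 (adjusted p = 0.00341), and -1.28 after spike-in scaling (adjusted p = 0.026), and with no scaling its -1.31 was not called (adjusted p = 0.155).

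The other 11 falls passed in the table and not after spike-in scaling. miR-484 stood at 4.46 and 4.39 on day 0 and 1.05 and 0.94 on day 7, a change of -3.43 (adjusted p = 0.0161) against -0.98 after spike-in scaling (adjusted p = 0.0713). miR-29b-1*, the passenger arm of miR-29b, had values of 3.65 and 3.70 on day 0 and 1.42 and 0.12 on day 7, and its -2.91 became -0.20. miR-301a had values of 4.28 and 4.20 on day 0 and 2.68 and 0.93 on day 7, and its -2.43 became -0.43. In miR-301a and in miR-486-5p, with values of 4.24 and 3.74 on day 0 and 2.85 and 0.37 on day 7, clone 36 stood lower on day 7 than clone 22. For miR-98 and miR-1826 the direction turned, from -2.46 and -2.16 in the table to 0.39 and 0.48 after spike-in scaling. The rest were miR-331-3p at -1.83, miR-92a at -1.60, let-7c at -1.37, miR-100 at -1.35 and miR-99b at -1.35. In the same order they were -0.68, -0.56, -0.26, -0.13 and -0.13 after spike-in scaling.

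Some of these calls depended on the arrays fitted. In limma on the 4 Sa/CD99 arrays alone, 76 miRNAs were called in place of 64, and 30 of them were lower in place of 20. Of the 48 miRNAs followed by name, miR-1290, miR-301a and miR-486-5p were no longer called. Among the same 48, miR-125a-5p, miR-125b, miR-222 and miR-27a were called lower. All 7 had the same changes as in the fit of 12 arrays. Of the 16 miRNAs plotted by array, miR-494, miR-1246, miR-1268, miR-1290, miR-129*, miR-484, miR-301a, miR-486-5p and miR-98 lost the call when 1 or another of the 4 arrays was left out, while miR-210, miR-149, miR-29b-1*, miR-923, miR-1225-5p, miR-1202 and miR-1308 kept it without any 1 of them.

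The clones moved alike. Across the 113 miRNAs, which share the 4 arrays and are not independent replicates, the change in clone 22 and the change in clone 36 had a Pearson r of 0.933 and a Spearman rho of 0.845. Both clones were below 0 in 92 of them, both above in 13, and on opposite sides in 5. The level on day 0 and the change had a Pearson r of 0.147 and a Spearman rho of 0.291 across the same 113 in the table, and of -0.141 and -0.212 after spike-in scaling.

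**Figure D3:**
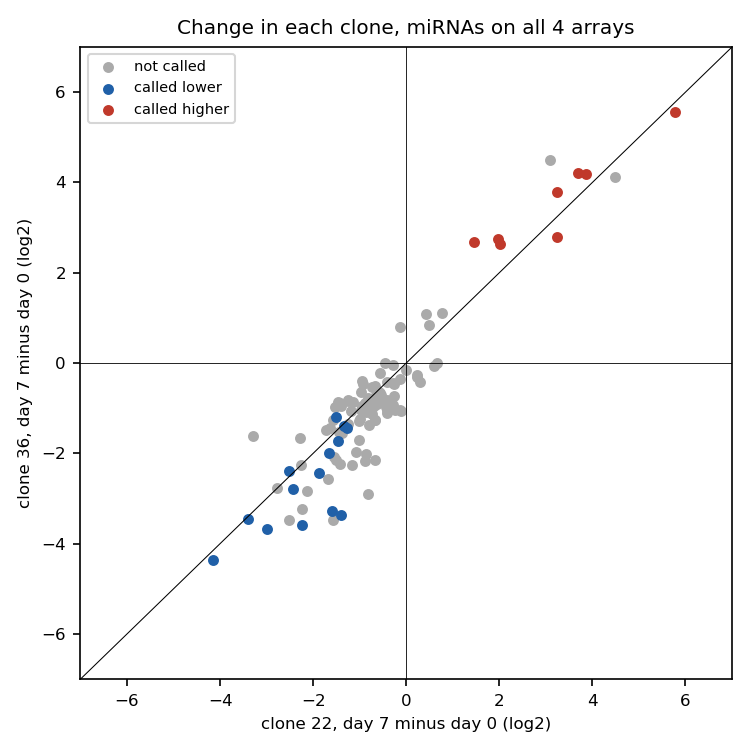
Change from day 0 to day 7 (log2, deposited table) in clone 22 on the x axis and in clone 36 on the y axis for the 113 miRNAs on all 4 arrays, coloured by call; the line marks equal change. The points follow the line (r = 0.933 across miRNAs) and centre below 0 at medians of -0.82 and -0.95, where the medians after spike-in scaling are 0.42 and 0.24.

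All 9 let-7 names, repressors of RAS and of LIN28, were on all 4 arrays. let-7a, the most abundant of them, stood at 10.09 and 10.09 on day 0 and 9.83 and 9.61 on day 7. Its change was -0.36 (adjusted p = 0.543), and 0.16 after spike-in scaling. let-7c and miR-98 fell and the other 7 did not pass, with changes between -1.08 and -0.25. The median of the family was -0.72, 0.21 above the median of the 113, and after spike-in scaling 0.16, -0.17 from that median. Of the 9, 6 lay above the median of the 113 in the table and 3 after spike-in scaling, and 0 of the 9 were above 0 in the table and 6 after spike-in scaling. Of the miR-17-92 cluster and its paralogues, which drive proliferation, 12 of 13 names were on the array and 8 were members. Only miR-92a fell, with values of 8.09 and 7.99 on day 0 and 6.62 and 6.27 on day 7 (adjusted p = 0.0221), and the median of the 8 was -0.76, 0.18 from that of all, and 0.36 after spike-in scaling. In the miR-15/16 family, inhibitors of the cell cycle, 2 of 7 names were members and neither passed. miR-15b, at 10.54 and 10.54 on day 0 and 10.09 and 10.54 on day 7, was at the top of the human values on day 0, and miR-16 had values of 5.54 and 5.19 on day 0 and 4.89 and 4.35 on day 7. The median of these 2 was -0.49 and 0.14 after spike-in scaling.

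miR-99b, miR-100, miR-125a-5p and miR-125b, of clusters that also hold let-7 genes, were the 4 members of their list of 5. miR-99b and miR-100 fell (adjusted p = 0.0282 and 0.0183), and miR-125b at -1.47 (adjusted p = 0.0525) and miR-125a-5p at -1.42 (adjusted p = 0.101) did not pass. All 4 lay below the median of the 113 on both scales, at -0.45 in the table and -0.60 after spike-in scaling for the median of the list, and all 4 were below 0 on both scales. Among the opposite arms of these hairpins, miR-99b*, undetected on day 0, had values of 2.98 and 3.24 on day 7, and miR-125a-3p, whose scanner signal was 2.01 in clone 22 and undetected in clone 36 on day 0, had 36.6 and 42.5 on day 7. These are given as a description, since both arms entered through day 7.

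In the miR-23/27/24 clusters all 5 names were members and none passed. miR-23b stood at 8.55 and 8.35 on day 0 and 7.83 and 7.56 on day 7 and miR-27a at 3.16 and 3.55 on day 0 and 1.49 and 0.99 on day 7, with a median change of the list of -0.75 that was 0.42 after spike-in scaling. In the miR-30 family 4 of 5 names were members and none passed. miR-30d stood at 7.93 and 7.72 on day 0 and 7.26 and 6.47 on day 7 and miR-30b at 4.10 and 3.86 on day 0 and 3.29 and 0.96 on day 7, the median was -1.18, and after spike-in scaling it was 0.25 with all 4 above 0. The family of miR-130 and miR-301a had 2 members of 5, miR-301a, which fell in the table, and miR-130b at -1.81 (adjusted p = 0.222). Their median was -2.12, -1.19 from that of all, and close to 0 after spike-in scaling, where miR-130b was above 0 at 0.42.

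Of 16 regulators of osteoblast matrix and BMP signalling, 15 were on the array and 6 were members, 5 of them on all 4 arrays. miR-210 fell and the other 4 did not pass. miR-26a, which acts on SMAD1, stood at 4.00 and 3.93 on day 0 and 4.60 and 3.86 on day 7, a change of 0.27 (adjusted p = 0.75) and 1.61 after spike-in scaling (adjusted p = 0.0735). miR-29a, a repressor of collagen mRNAs, stood at 6.47 and 6.41 on day 0 and 5.93 and 5.54 on day 7, a change of -0.71 (adjusted p = 0.153) and 0.37 after spike-in scaling. The list had a median of -0.96, and 0.19 after spike-in scaling. The miR-29 list had only miR-29a as a member of its 3 names. In the miR-26 list both names were members, with a median of -0.63 and of 1.23 after spike-in scaling, and neither passed on either scale. Of 11 miRNAs reported to target RUNX2, the master regulator of osteoblasts, 3 were members. miR-23a at -0.93 (adjusted p = 0.139) and miR-30c at -1.41 (adjusted p = 0.142) were on all 4 arrays and did not pass, with positive values of 0.10 and 0.56 after spike-in scaling, and miR-34c-5p was detected on day 7 alone. Their median on all 4 arrays was -1.17 and 0.33 after spike-in scaling.

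In the mesenchymal list, made of miR-143, miR-145, miR-140 and the arms of miR-199 and miR-214, 5 of 8 names were members and none passed. miR-214, which with miR-199a marks mesenchymal cells, stood at 8.19 and 8.19 on day 0 and 7.93 and 7.47 on day 7 and miR-145 at 6.27 and 6.15 on day 0 and 5.64 and 5.24 on day 7. All 5 lay above the median of the 113 on both scales. The median of the list was -0.49, 0.44 above that of all, and 0.97 after spike-in scaling, 0.64 above. For miR-21, miR-221 and miR-222, all 3 were members and none passed, with a median -0.07 from that of the 113 and -0.36 from it after spike-in scaling. miR-21, the most abundant of them, stood at 8.96 and 8.69 on day 0 and 9.61 and 8.69 on day 7, and miR-222, a repressor of the cell cycle inhibitor p27, at 3.74 and 3.65 on day 0 and 0.96 and 0.89 on day 7 (adjusted p = 0.0589).

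**Figure D4:**
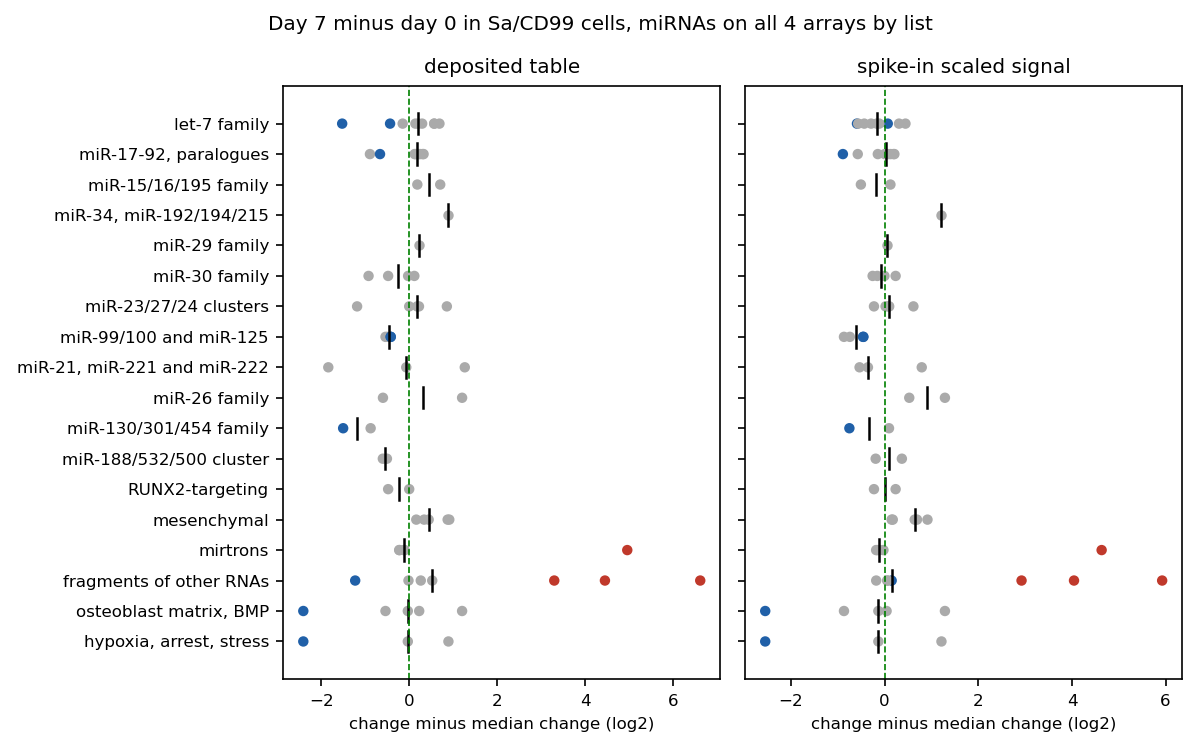
Change from day 0 to day 7 minus the median change of the 113 miRNAs (log2) for each listed family, by the deposited table on the left and by spike-in scaled signal on the right; each point is 1 miRNA on all 4 arrays, red where called higher in the table, blue where called lower in the table and grey otherwise, in both panels, and a black tick is the median of the list. The mesenchymal list lies above the dashed line on both scales and the miR-99/100 and miR-125 list below it on both, while let-7 has its median at 0.21 on the left and -0.17 on the right.

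Of 7 stress and growth arrest names 3 were members, with a median of -0.96 and of 0.19 after spike-in scaling. Besides miR-210 these were miR-22 at -0.96 (adjusted p = 0.161), or 0.19 after spike-in scaling, and miR-34a. miR-34a, a direct p53 target on which the study centres, stood at 3.27 and 3.45 on day 0 and 3.49 and 3.14 on day 7. The clones overlapped between days, and the change was -0.04 (SE 0.93, adjusted p = 0.965). Its scanner signal was 3.63 and 4.84 on day 0 and 13.4 and 10.5 on day 7. After spike-in scaling it rose by 1.54 (adjusted p = 0.0433), and with no scaling its change of 1.503 was not called (adjusted p = 0.176). Of the 8 names of the p53-linked list of miR-34, miR-192, miR-194 and miR-215, 3 were members, and the other 2, miR-34c-5p and miR-34b*, were detected on day 7 alone, with scanner signals of 3.62 and 5.78 and of 3.34 and 7.88, and with no bound above 1 for their rise by the table. Of the miR-374 list, 4 names were on the array and 0 were members.

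Other miRNAs that the study discusses were measured in the same cells. miR-1305 stood at 4.35 and 4.00 on day 0 and 4.77 and 5.09 on day 7, above day 0 on both day 7 arrays, a change of 0.76 (adjusted p = 0.161), and it rose by 1.93 after spike-in scaling (adjusted p = 0.0075). It was not called with no scaling at 1.90 (adjusted p = 0.0668) or by the 75th percentile at 1.28 (adjusted p = 0.0523). miR-26b stood at 3.29 and 2.61 on day 0 and 2.39 and 0.45 on day 7, a change of -1.53 (adjusted p = 0.157) that turned to 0.85 after spike-in scaling. miR-342-3p stood at 5.37 and 5.29 on day 0 and 4.35 and 3.59 on day 7, a change of -1.36 (adjusted p = 0.0525), near 0 after spike-in scaling at -0.04. miR-892b was undetected on day 0 and at 2.77 and 2.85 on day 7, at least 1.52-fold higher by the table and at least 6.46-fold after spike-in scaling. miR-139-3p was not a member, since it was detected on 1 of the 4 arrays. Of the miRNAs on all 4 arrays, miR-34a, miR-1305 and another 2 were called higher after spike-in scaling and not in the table, these being miR-1275 at 2.20 (adjusted p = 0.0143) and miR-940 at 0.98 (adjusted p = 0.044).

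Among the 38 miRNAs detected on day 7 alone, 4 led by level. miR-630 had values of 8.35 and 8.46 on day 7, with scanner signals of 312 and 384, and was undetected on day 0. Set against the lowest detected value of the day 0 arrays it was at least 73.6-fold higher by the table and at least 259-fold after spike-in scaling. miR-188-5p was at 7.20 and 7.26, at least 32.7-fold and 129-fold higher. miR-483-5p, from an intron of IGF2, was at 5.79 and 6.41, at least 14.97-fold and 61.5-fold higher, and miR-663 was at 5.49 and 6.15, at least 12.3-fold and 49.2-fold. At the low end of the 38, miR-423-3p stood at -0.66 and -0.38 on day 7. By the table the bound exceeded 1 for 27 of the 38, and after spike-in scaling for all 38. The lowest detected scanner signal was 1.38 and 1.37 on day 0 and 1.43 and 1.44 on day 7, and the same limit stood in the table at 2.39 and 2.004 on day 0 and at -0.71 and -0.38 on day 7. In the miR-188 cluster of chromosome X, 4 of 13 names were members: miR-188-5p and miR-500 on day 7 alone, and miR-532-3p at -1.53 and miR-362-5p at -1.44, not called. For the last 2 the median was -1.49 and 0.42 after spike-in scaling.

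Day 0 alone held miR-183 and miR-92b. miR-183, of the sensory miR-183/96/182 cluster, had values of 2.73 and 3.39 on day 0 with scanner signals of 2.36 and 4.23, and was at least 12.1-fold lower on day 7 by the table and at least 2.14-fold after spike-in scaling. miR-92b, which shares its seed with miR-92a, had 2.39 and 2.10, at least 6.90-fold and 1.06-fold lower. Both were weak on day 0, near the lowest detected signals of those arrays.

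Base composition differed between the classes of detection. The median GC content was 52.2% over the 147 members with a sequence, 48.9% for those on all 4 arrays and 63.6% for the 31 of 38 on day 7 alone, where it ranged from 42.9% to 90.9%. It was 52.3% for the 12 of the 14 falls that had a sequence and 47.8% for those not called. Only 6 of the 8 rises had a sequence, under the 80% set for such a comparison, so none is given for them. Across 94 miRNAs that share the 4 arrays, the G content and the change had a Pearson r of 0.452 and a Spearman rho of 0.303, the GC content and the change 0.236 and -0.036, and the length and the change -0.382 and -0.289.

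The parental cells give the background for these changes, and there day 0 and day 7 lay on the same slide. Saos-2 also had an array sum dominated by miR-923 on day 7, 62.2% and 60.2%, against 6.55% and 2.13% on day 0. Over the 101 miRNAs on all 8 arrays of both cell types, the median change was -0.82 in Sa/CD99 and -0.97 in Saos-2 by the table. After spike-in scaling it was 0.32 in both. In Saos-2 the mean log2 signal of the spike-in controls was 10.34 and 10.72 on day 0 and 9.79 and 10.54 on day 7. The controls varied more there than on days 0 and 7 of Sa/CD99, which limits the scaled value for Saos-2. Across these miRNAs the changes in the 2 cell types had an r of 0.959, which share no array but were normalized together. miR-210 in Saos-2 had scanner signals of 72.0 and 65.3 on day 0 and of 11.5 and 19.4 on day 7, and the difference between the cell types in its change was -0.19 (adjusted p = 0.990). For miR-923 that difference was -0.20 (adjusted p = 0.990) and for miR-1225-5p -0.76 (adjusted p = 0.990).

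For a change that differed between the cell types limma called 1 of 219 miRNAs at an adjusted p of 0.05, or 0.457%, with 16 at an unadjusted p of at most 0.05. That was miR-378, and the call compares it with the floor at which undetected names stand, so it is given here as a description. It is encoded in an intron of PPARGC1B at chr5:149732867-149732888 on the plus strand (GRCh38.p14). In Sa/CD99 it was undetected on day 0 and stood at 3.14 and 3.05 on day 7 and 3.52 and 3.37 on day 14. In Saos-2 it was detected throughout, at 3.24 and 3.29 on day 0 and 2.81 and 3.40 on day 7. The rise in Sa/CD99 was at least 1.86-fold by the table and at least 7.78-fold after spike-in scaling. The call was absent in limma on the scanner signal with no scaling, the rma-like and the normexp values, with 6, 11 and 6 miRNAs at an unadjusted p of at most 0.05. miR-34a was undetected in Saos-2 on day 0, so its difference is likewise set by the floor. It was not called in the table and was called after 75th percentile scaling. For miR-1305 the difference was -1.38 (adjusted p = 0.617).

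**Figure D5:**
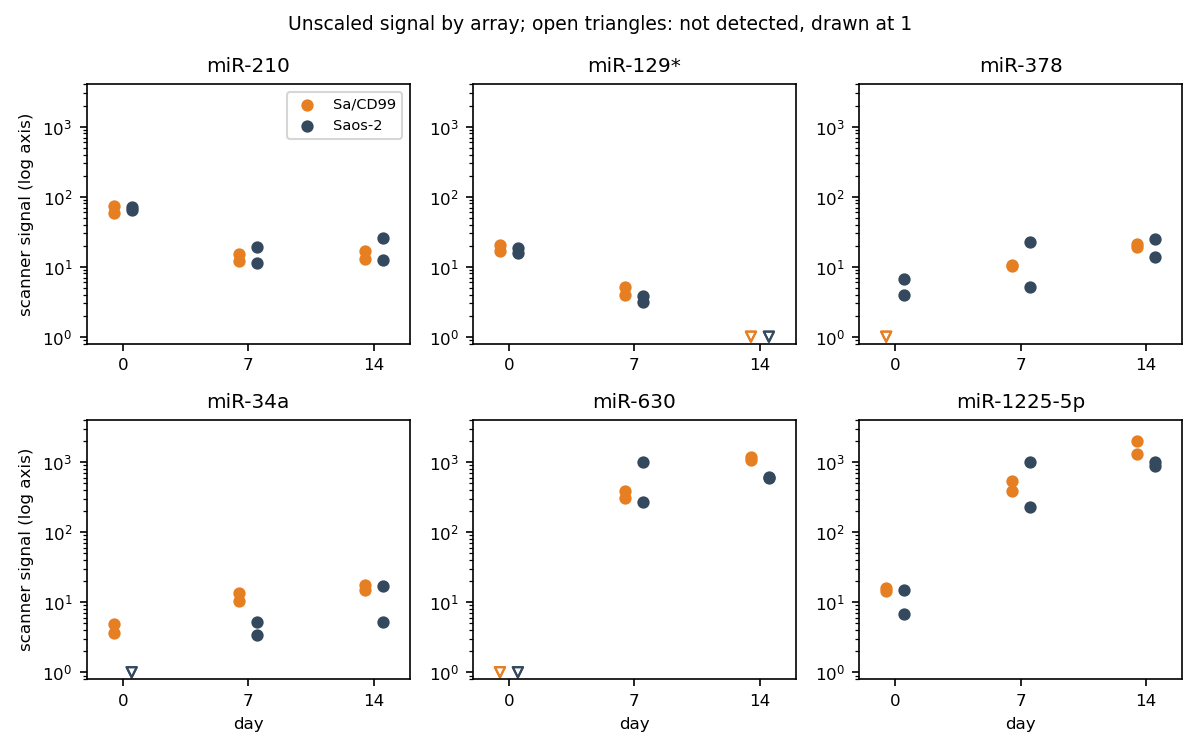
Unscaled scanner signal (log axis) by day for 6 miRNAs; each filled point is 1 array, orange for Sa/CD99 and dark for Saos-2, and open triangles are arrays where the miRNA was not detected. miR-210 stands between 58.6 and 72.8 on day 0 and between 11.5 and 19.4 on day 7 in both cell types, while miR-378 is undetected only on day 0 of Sa/CD99.

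The label of the cells was checked against miRNAs that mark cell types. Of 14 mesenchymal and osteoblast-lineage names 10 were detected on both arrays of each day, with a summed scanner signal of 736 and 700 on day 0 and of 1374 and 964 on day 7, led by miR-21. miR-143, miR-199b-5p, miR-218 and miR-29b were undetected on all 4 arrays. None of the 6 blood, 8 epithelial, 1 liver and 1 endothelial names was detected on any of the 4 arrays, and of the 4 muscle names only miR-133b was, at 3.73 on 1 day 7 array. Of the 4 nerve names miR-124 and miR-9 were undetected, and miR-128 and miR-129-5p were detected on some arrays. The sum was 10.75 and 15.55 on day 0 and 2.91 and 3.29 on day 7. It was led by miR-129-5p, save in clone 22 on day 7, where the signal was that of miR-128.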

How the data were processed

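The authors scanned 12 arrays with Feature Extraction 10.7.3.1 per the file headers, which give each spot an intensity that is not normalized between arrays. The deposited table holds normalized log2 values of the same arrays; the submitters name RMA. Values equal, within 0.198 on the log2 scale at most, a quantile normalization of the total gene signal over all 961 names, control features included, with undetected names at a floor. Samples follow the table's column titles. Every scanner file is filed under a sample other than that of its table column, so each was paired with the column that has the same detected names before its signal was used. With 2 clones, the number of arrays limits the precision.

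limma 3.58.1 on R 4.3.3 fitted 6 groups and a clone term for the Sa/CD99 arrays alone. The Saos-2 replicates had no such term, so the spread between them enters the standard errors of the Sa/CD99 changes. Tested were the 219 human names above the column floor on both arrays of a group. The fit had 5 residual degrees of freedom, with Benjamini-Hochberg adjustment at 0.05. Each clone is 1 cell line across days, and the deviations of the clones from their group means had a correlation of 0.524 between days 0 and 7 across 100 miRNAs. Tables were made with Python 3.11.15. The code was tested on simulated data. Bounds set the mean where a miRNA was detected against the lowest detected value of each array of the other day. They take an undetected name to lie no higher than the weakest detected name of that array, which was not tested.

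Members and lists were chosen with earlier results of these data known. Named are the 8 largest rises and 8 largest falls called on all 4 arrays with both clones in one direction and no overlap, the 4 strongest of each direction detected on a single day, the most abundant and most changed member of each list, 7 miRNAs of the study's text, and up to 5 interaction calls. Arm names of the array were matched to current names by hand. Array names such as miR-923_v12.0 are written without the suffix. Hairpins with both arms were looked at after the values were seen. The alternatives changed the filter, the floor, the scaling, the threshold, the moderation, the clone block, the arrays and the labels. Scaling to 4 spike-in controls and quantile normalization over human names alone were added after seeing the data. limma's own normexp estimates failed on some arrays, so normexp used rma-type parameters with an offset of 50.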

Additional observations from a re-analysis of the deposited data

Results flagged for a closer look

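Probes for viral miRNAs lie outside the comparisons. Of 88 viral names on the array, 2 were detected on both day 0 arrays and 5 on both day 7 arrays of Sa/CD99. Picked out because they had signal on both day 7 arrays and none on the day 0 arrays were hsv1-miR-H1, with a mean scanner signal of 57.9, hcmv-miR-UL70-3p with 27.5, ebv-miR-BART13 with 16.5 and hcmv-miR-US4 with 8.97. kshv-miR-K12-3 was detected on both days, at 13.1 and 6.00 on day 0 and 223 and 286 on day 7. The source of this signal was not tested.

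miR-378 was picked out because its change from day 0 to day 7 differed between Sa/CD99 and Saos-2 by the interaction term, by 6.27 on the log2 scale. That value is set by the floor, since neither day 0 array of Sa/CD99 detected it, and is not a measured size; by the table the rise in Sa/CD99 was at least 1.86-fold. Its values on every array are in the plot of unscaled signal by day.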

How the results depend on the processing

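The table gave 64 calls, 44 of them higher. A new fit of only the miRNAs on all 4 arrays, where those detected on a single day are not tested, gave 26 calls, 8 higher, and one with floor values as missing gave 41, 13 higher. Both include miRNAs that are not among the 64, such as miR-125b and miR-342-3p. With no filter 685 were called, since undetected names stand at floors that differ between columns and hardly vary within a group. normexp gave 29 higher, and the cause was not tested. With the scanner files under the samples they were filed with, limma called 0, 0 of them higher and 0 for the interaction, with 1 at an unadjusted p of at most 0.05, a median of -0.11 and 7 miRNAs on a single day in place of 40. By the table's labels those arrays hold other samples. Leaving out 1 array gave 41 to 50 calls, 33 to 38 higher, a median of -0.98 to -0.82, 1 to 4 interaction calls and 48 to 53 miRNAs on a single day; the lone array is then assumed to vary like the other groups. Without the clone block there were 70 calls, 46 higher, and 1 interaction call. A fit of only the 4 Sa/CD99 columns, with 76 calls and 46 higher, has no interaction value.

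The median change of -0.93 was -0.46 after centring, -0.77 by the rma-like summary, -0.33 by the 75th percentile, -0.18 by normexp, 0.29 with no scaling and 0.33 by spike-in scaling, and the cause was not tested. The interaction had 0 calls on the miRNAs on all 4 arrays, with floor values as missing, by the rma-like summary, with no scaling and by normexp, 2 by spike-in scaling (miR-596 and miR-378), 3 by the 75th percentile (these and miR-34a) and 4 at the threshold of the study's methods.

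Of 896 values of 48 named miRNAs under the alternatives, 712 kept direction and side of the threshold, 89 lost and 37 gained the call, and 58 changed sign, 6 of these in miRNAs called by the table; the cause was not tested. With no scaling the values that changed sign were miR-98 0.36, let-7a 0.12, miR-16 0.41, miR-34a 1.503, miR-29a 0.33, miR-30d 0.13, miR-30b 0.0329, miR-23b 0.31, miR-27a 0.38, miR-26b 0.82, miR-532-3p 0.0979, miR-23a 0.0617, miR-30c 0.52, miR-214 0.46 and miR-145 0.44. By spike-in scaling they were miR-98 0.39, let-7a 0.16, miR-16 0.45, miR-34a 1.54, miR-29a 0.37, miR-30d 0.17, miR-30b 0.0704, miR-23b 0.35, miR-27a 0.42, miR-26b 0.85, miR-532-3p 0.14, miR-23a 0.0991, miR-30c 0.56, miR-214 0.50 and miR-145 0.48. With arrays as filed they were miR-1246 -0.0624, miR-129* 0.26, miR-29b-1* 0.0797, miR-183 0.74, miR-19a 0.34, miR-16 0.70, miR-29a 0.0652, miR-30b 0.29, miR-27a 1.05, miR-222 0.36, miR-26b 0.0508, miR-30c 0.41, miR-1305 -0.22 and miR-342-3p 0.13. Centring gave let-7a 0.10, miR-15b 0.24 and miR-34a 0.43, the rma-like summary miR-34a 0.40 and miR-30c 0.0366, the 75th percentile miR-34a 0.88 and miR-26b 0.20, normexp miR-34a 0.00935 and quantile normalization over human names miR-34a 0.0699. Leaving out 1 array gave -0.53 to 0.068 for miR-15b, -0.32 to 0.24 for miR-34a, -0.0047 to 0.66 for miR-21 and -0.14 to 0.68 for miR-26a. Signals near the detection limit, 1.37 to 1.44 on these arrays, limit what can be said of weak miRNAs.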
